A study of Homo sapiens with 28 samples.

Results

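The ADAM, ADAMTS and ADAMTSL genes were followed in A549 and H1944, 2 established human lung adenocarcinoma lines. Members were the protein-coding genes whose symbol is ADAM, ADAMTS or ADAMTSL followed by a number, and 44 of the 60483 gene rows of the count table met this rule. The synthetic reporter MGT#1-mVenus, which reads out a mesenchymal state through the fluorescent protein mVenus, was present in every group of both lines, controls included. For 11 days cells received 5 µM GSK126, which blocks the histone methyltransferase EZH2, or 5 ng/ml TGF-β1, the cytokine best known for driving epithelial cells towards a mesenchymal state. Treated cells were then sorted into a low and a high mVenus gate, while the naive controls were untreated and unsorted, so treatment and sorting cannot be told apart in a comparison with naive cells. A549 contributed 13 libraries: 3 naive, GSK126 with 3 low-gate and 2 high-gate libraries (letters A and B), and TGF-β1 with 2 low-gate (A and C) and 3 high-gate libraries. H1944 contributed 15 libraries, 3 in each of the same 5 groups. Nothing in the labels says that letters stand for separate cultures, so the p-values measure the spread between these libraries, which may be technical.

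ADAMs are membrane-anchored proteins with a metalloprotease and a disintegrin domain. The active ones shed the outer part of growth factors, Notch receptors, cadherins and cytokine receptors, whereas several family members have lost the catalytic site and act in adhesion. ADAMTS proteins are secreted proteases with thrombospondin repeats that cut proteoglycans, procollagens and other matrix proteins, and the ADAMTSL proteins share their repeats but lack the protease domain and bind the extracellular matrix.

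Per library, the summed counts over all genes ran from 2013449 to 9550143 (median 4783344) in A549 and from 1660148 to 13280592 (median 2552121) in H1944. Levels are given as CPM, a gene's counts scaled to a common library total, and comparisons between genes as RPKM, which is CPM per kilobase of merged exon. The summed level of 374 olfactory receptor genes, which served as a measure of background reads, was 195 CPM in A549 naive library A and 305 CPM in A549 TGF-β1 high library B. It was at most 121 CPM in every other library. Epithelial marker genes (EPCAM, CDH1 and 4 keratins) summed to 12200 to 12800 CPM in naive A549 and 4990 to 5620 CPM in naive H1944. The 5 lung lineage markers summed to at most 6.38 CPM in naive A549 and 2.08 CPM in naive H1944, so the defining markers of lung epithelium were close to absent.

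A gene had to pass a filter on low counts to be tested, and 37 members passed in A549, 22 in H1944 and 31 in the fit of both lines. ADAM2, ADAM20, ADAM21, ADAM30, ADAM33, ADAMTS5 and ADAMTSL2 passed in none, with group means of at most 1.68 CPM. A member that passed because 1 group lifted it had to differ from the others, so the counts below describe the tested members and are no evidence about the family. Calls are made at a Benjamini-Hochberg adjusted p of 0.05 over all genes tested, with edgeR's quasi-likelihood test, and n counts libraries of both gates together unless a gate is named.

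TGF-β1 changed the make-up of the family in both lines. Per length, ADAM9, a broadly expressed membrane sheddase, was the leading member of naive cells with 57.1% of the family's summed RPKM in A549 and 40.3% in H1944. ADAM19, a membrane sheddase of neuregulins, took first place in all 4 TGF-β1 groups. ADAM19 and the secreted ADAMTS6 together made up 0.668% ± 0.560 (SD, n = 3) of the family's RPKM in naive A549 and 0.232% ± 0.00854 (SD, n = 3) in naive H1944. Under TGF-β1 their share was 48.8% ± 0.0 (SD, n = 2) in the low and 53.0% ± 4.77 (SD, n = 3) in the high gate of A549, and 37.7% in both gates of H1944 (SD 0.208 and 1.5, n = 3 each). Under GSK126 the share lay between 4.71% and 7.24% over the A549 libraries and between 1.18% and 2.40% over the H1944 libraries.

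The summed RPKM of the 44 members was 127 ± 4.58 (SD, n = 3) in naive A549, and 252 ± 4.24 (SD, n = 2) and 265 ± 15.2 (SD, n = 3) in its low and high TGF-β1 gates. In H1944 it was 113 ± 7.02 (SD, n = 3) in naive cells, and 348 ± 1.53 and 365 ± 3 (SD, n = 3 each) in these gates. No library of the TGF-β1 groups overlapped with the naive libraries of its line. GSK126 libraries held 122 to 150 in A549 and 139 to 162 in H1944, overlapping with naive A549 (122 to 131) but not with naive H1944 (106 to 120). The sum follows a few members, and in bulk RNA fewer cells with a transcript and less transcript per cell cannot be told apart.

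**Figure D1:**
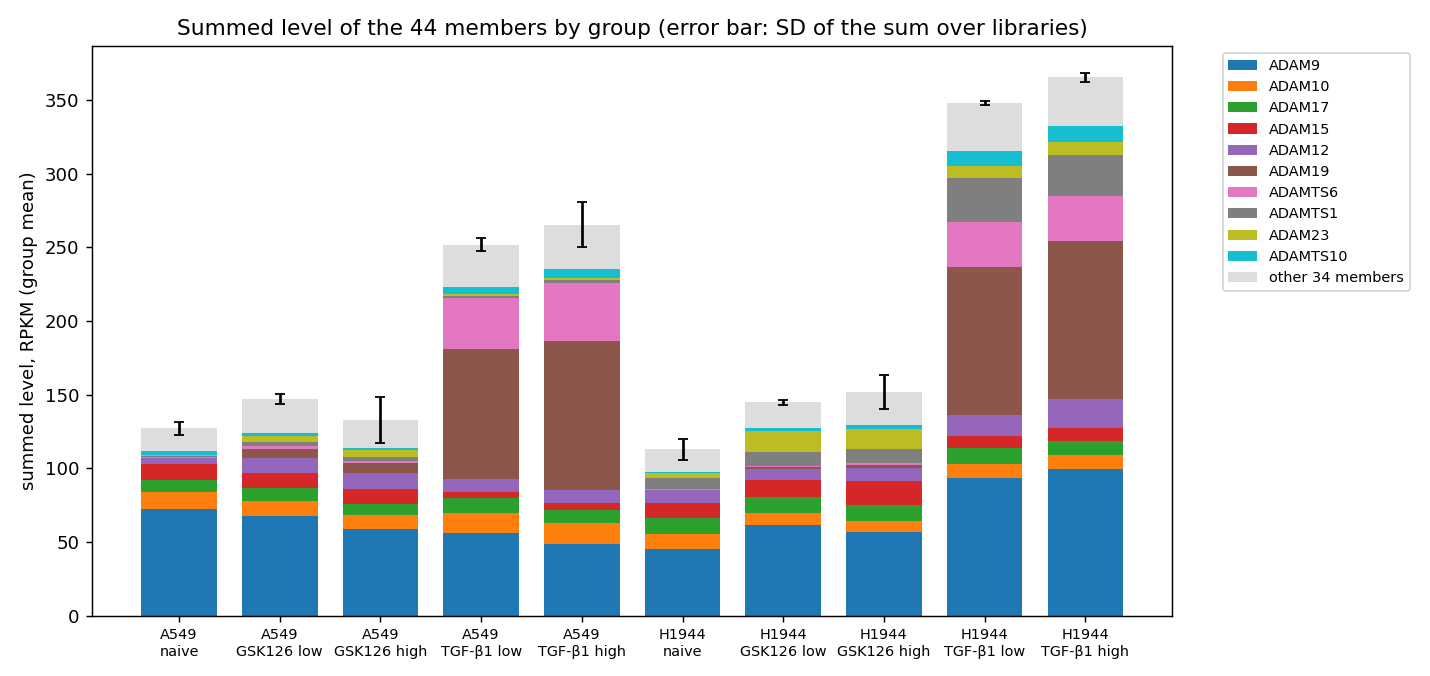
Summed level of the 44 members in each of the 10 groups, in RPKM (linear axis from 0); stacked colours are the group means of 10 named members and the grey block is the other 34, and the error bar is the SD of the sum over libraries. ADAM19 and ADAMTS6 are thin slices in naive cells and reach 37.7% to 53.0% of the family in the TGF-β1 groups, while ADAM9 is the widest slice of the naive and GSK126 groups.

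The comparison of TGF-β1 with naive cells asked which members changed on prolonged exposure to the cytokine. In A549, 7 of the 37 tested members rose and 2 fell, 9 in all, where 19.3% of all 19842 tested genes were called (7.77% higher and 11.5% lower). The median log2 fold change of the tested members was 0.50, against 0.05 over all genes. In H1944, 12 of 22 rose and 1 fell, where 63.7% of all 13621 tested genes were called (32.1% higher and 31.6% lower), with medians of 1.08 over the members and -0.01 over all genes. The called members were 24.3% of those tested in A549 and 59.1% in H1944, close to the share of all genes called in each line.

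For GSK126 the question was which members changed on prolonged inhibition of EZH2, which places the repressive mark H3K27me3. In A549, 8 of 37 tested members rose and 1 fell, where 6.87% of all tested genes were called (3.66% higher and 3.21% lower), and the median log2 fold change was 0.20 over the members and -0.17 over all genes. In H1944, 13 of 22 rose and 3 fell, where 40.1% of all tested genes were called (21.4% higher and 18.7% lower), with medians of 0.70 and 0.01. The called members were 24.3% and 72.7% of those tested. In each line the GSK126 and TGF-β1 comparisons share the same 3 naive libraries, so their values are set side by side below and each was tested on its own.

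**Figure D2:**
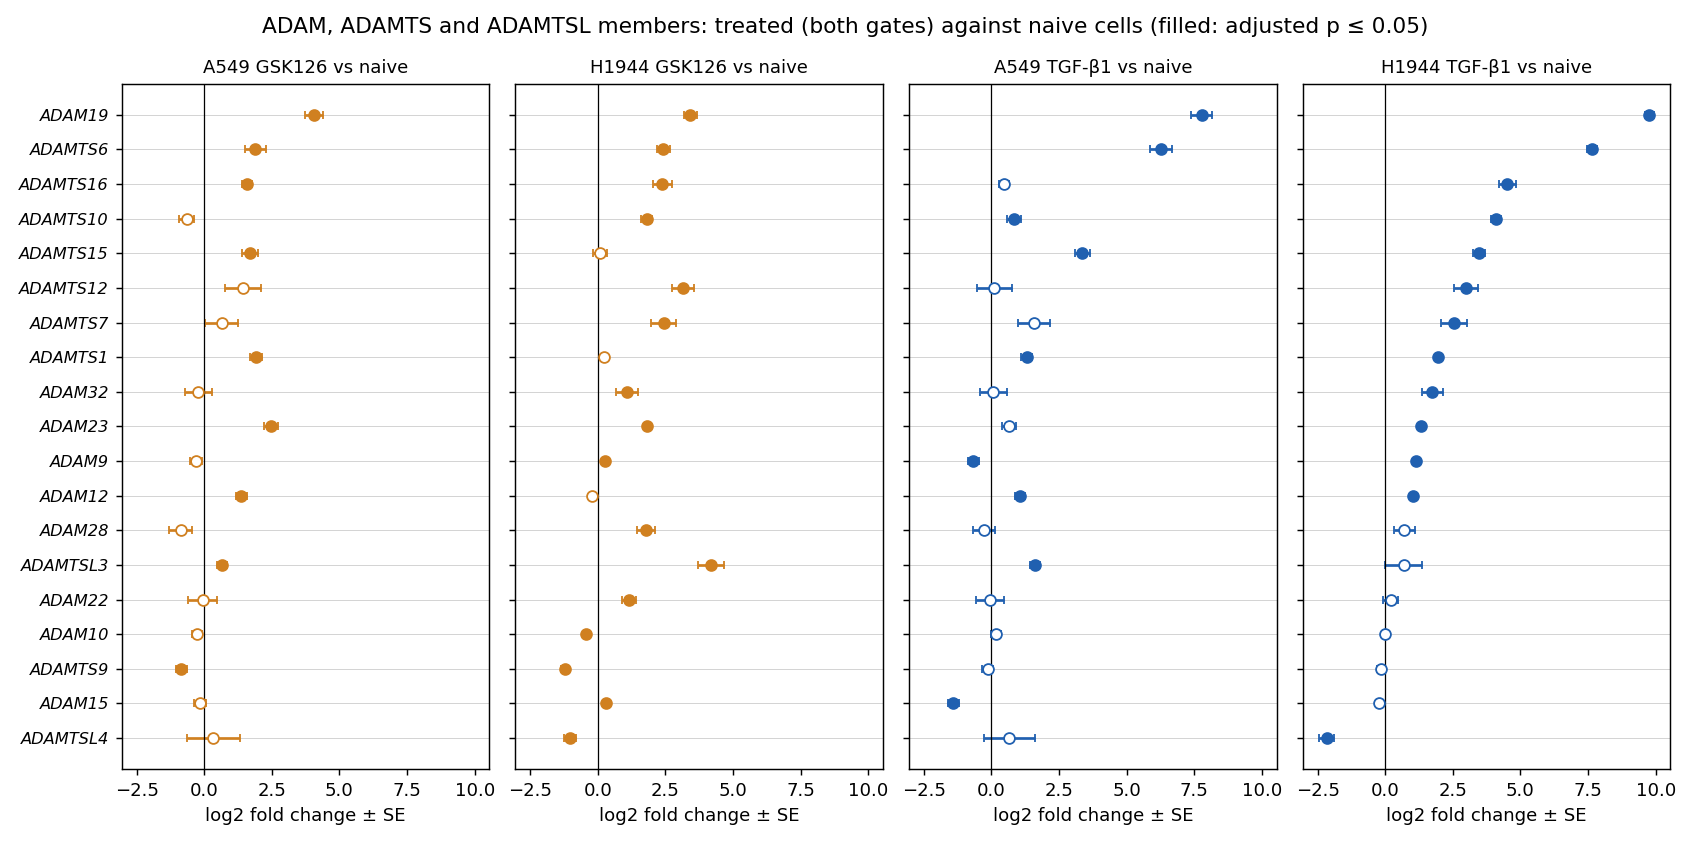
Log2 fold change with its SE (x axis) for the 19 members that passed the test in at least 1 of the 4 comparisons with naive cells and reached a group mean of 5 CPM in that line, in rows; filled points passed at an adjusted p of 0.05. ADAM19 and ADAMTS6 lie farthest right in both TGF-β1 panels, and ADAMTSL3, ADAMTS12 and ADAM19 lie farthest right under GSK126 in H1944.

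Among the active ADAMs, ADAM19 had the largest changes. ADAM19 (chr5:157395534-157575775, minus strand, GRCh38) was close to silent in naive cells. Its naive libraries held 5.94, 1.45 and 1.98 CPM in A549, of which A, the background-rich one, was highest, and 0.42, 0.416 and 1.13 CPM in H1944 on 17 counts in all. GSK126 brought it to 38.9, 53.1 and 62.2 CPM in the low and 45.4 and 61.6 CPM in the high gate of A549. In H1944 these libraries held 8.93, 7.17 and 8.92 CPM in the low and 14.5, 15.9 and 14.4 CPM in the high gate. No GSK126 library overlapped with a naive one, and in H1944 the high gate lay above the low gate in every library. Under TGF-β1 ADAM19 stood at 694 and 663 CPM (low) and 801, 738 and 794 CPM (high) in A549. In H1944 it stood at 792, 775 and 755 CPM (low) and 881, 795 and 803 CPM (high). All TGF-β1 libraries thus held more ADAM19 than any GSK126 library of either line.

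ADAM19 rose under GSK126 by a log2 fold change of 4.07 ± 0.33 (SE; adjusted p = 2.08e-07) in A549, a 16.7-fold increase. The same drug gave 3.42 ± 0.24 (adjusted p = 3e-16) in H1944, a 10.7-fold increase. TGF-β1 gave 7.77 ± 0.38 (adjusted p = 3.17e-11) in A549 and 9.76 ± 0.17 (adjusted p = 1.69e-40) in H1944, increases of 218-fold and 868-fold. The low naive levels set the precision of these folds. For TGF-β1 in H1944 the ratio of pooled counts, a different measure from the fitted fold, rests on 17 naive counts. By counting error alone that ratio has a 95% interval of 530 to 1460. Leaving out naive library A raised the A549 values to 4.78 (27.5-fold) under GSK126 and 8.59 (386-fold) under TGF-β1. Leaving out naive library C raised the H1944 values to 4.48 (22.3-fold) and 10.83 (1820-fold). Compared directly, TGF-β1 exceeded GSK126 by 3.70 ± 0.25 (adjusted p = 2.3e-09) in A549 and 6.35 ± 0.09 (adjusted p = 2.21e-43) in H1944.

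ADAM9 was the member of highest CPM in naive cells and moved in opposite directions in the lines under TGF-β1. Naive A549 libraries held 449, 577 and 480 CPM, and TGF-β1 libraries 377 and 400 CPM in the low and 290, 347 and 370 CPM in the high gate. Naive H1944 libraries held 306, 293 and 345 CPM, and TGF-β1 libraries 666, 642 and 635 CPM in the low and 684, 697 and 691 CPM in the high gate. The arms did not overlap in either line. ADAM9 rose in H1944 by 1.15 ± 0.10 (SE; adjusted p = 1.45e-11) and fell in A549 by 0.67 ± 0.22 (log2 fold change; adjusted p = 0.0342). The A549 call was lost in 8 of 15 alternatives, among them when naive library B or C, TGF-β1 low library A or C or TGF-β1 high library A was left out, with adjusted p up to 0.284. Under GSK126 it had a log2 fold change of 0.26 ± 0.10 (adjusted p = 0.0359) in H1944, a call lost in 8 of 15 alternatives (among them leaving out naive library A or B or GSK126 library A or B of either gate, with adjusted p up to 0.211), and -0.30 ± 0.22 (adjusted p = 0.52) in A549.

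ADAM12, an active ADAM known for its alternatively spliced secreted form, rose in 3 of the 4 comparisons. It stood at 37.2 ± 2.35 CPM (SD, n = 3) in naive A549, at 101 ± 7.81 CPM (n = 5) under GSK126 and at 86.5 ± 3.84 CPM (n = 5) under TGF-β1, with no overlap. On the log2 scale the rises were 1.38 ± 0.19 (SE; adjusted p = 9.56e-05) and 1.05 ± 0.19 (adjusted p = 0.000333). In H1944 its level was 85.7 ± 5.18 CPM (n = 3) in naive cells and 168 ± 31.7 CPM (n = 6) under TGF-β1, where it rose (1.01 ± 0.10, adjusted p = 1.34e-12). GSK126 left it at 80.3 ± 10.1 CPM (n = 6) there, overlapping with naive cells (-0.22 ± 0.10, adjusted p = 0.0639).

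ADAM15, ADAM10 and ADAM17 are the other active ADAMs of high level. ADAM15, a membrane ADAM with an integrin-binding motif in its disintegrin domain, fell in A549 under TGF-β1 by 1.42 ± 0.20 on the log2 scale (adjusted p = 2.81e-05). Its naive A549 libraries held 70.1, 62.5 and 82.6 CPM, all above the 25.1 to 36.3 CPM of the 5 TGF-β1 libraries. In H1944 it was called higher under GSK126 (0.31 ± 0.10, adjusted p = 0.0111) at overlapping levels. That call was lost in 5 of 15 alternatives, among them the low gate alone and no filter. The others were leaving out naive library B or C or GSK126 low library C. Over all alternatives the log2 fold change went down to 0.088 and the adjusted p up to 0.609. ADAM15 shares 4.65% of its exon length with DCST1 on the same strand, so some reads could belong to either gene.

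ADAM10, the constitutive sheddase of Notch and of cadherins, fell in H1944 under GSK126 by 0.43 ± 0.09 (log2 fold change; adjusted p = 0.00014). Its 3 naive libraries held 156, 165 and 154 CPM and the 6 GSK126 libraries 99.2 to 148 CPM, with no overlap. In the other 3 comparisons its log2 fold changes of -0.26, 0.16 and -0.02 did not pass. In A549 the TGF-β1 libraries held 207 to 254 CPM, all above the 165 to 188 CPM of naive cells. TGF-β1 against GSK126 was not called there for ADAM10 (adjusted p = 0.0926). It passed without the 2 background-rich libraries (0.564 ± 0.115, adjusted p = 0.000477). ADAM17, the sheddase of TNF and of EGF receptor ligands, was called in none of the 4 comparisons with naive cells. Its log2 fold changes lay between -0.18 and -0.05, with arms that overlapped in all 4. Its group means lay between 80.6 and 120 CPM. Antisense exons of IAH1 cover 12.3% of the exon length of ADAM17, and the sources used here do not give the strand setting of the counting. ADAM28, a sheddase of B cells and airway epithelium, rose in H1944 under GSK126 from 2.1, 1.25 and 2.56 CPM in naive cells to 4.84 to 10.5 CPM (1.77 ± 0.34, adjusted p = 3.18e-05), without overlap.

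Of the 3 ADAMs without a working catalytic site, ADAM23, a membrane protein of neuronal adhesion and synapses, rose most. It lies at chr2:206443539-206621130 on the plus strand (GRCh38). Naive A549 libraries held 7.83, 3.76 and 2.59 CPM of ADAM23, and GSK126 libraries 22.6, 29.3 and 26.8 CPM in the low and 26.0 and 27.7 CPM in the high gate. Naive H1944 libraries held 25.2, 21.2 and 23.8 CPM, and GSK126 libraries 86.4, 90.5 and 90.9 CPM in the low and 90.1, 97.4 and 81.8 CPM in the high gate. Every GSK126 library lay above every naive library of its line. The log2 fold changes were 2.47 ± 0.27 (SE; adjusted p = 6.72e-06) in A549 and 1.81 ± 0.12 (adjusted p = 1.33e-17) in H1944. Under TGF-β1 ADAM23 rose in H1944 by 1.33 ± 0.12 (adjusted p = 1.98e-13), to 56.4 ± 5.81 CPM (SD, n = 6). In A549 TGF-β1 gave 0.64 ± 0.27 (adjusted p = 0.109), with overlapping arms. Without the 2 background-rich libraries ADAM23 passed there, at 1.02 ± 0.29 (adjusted p = 0.00887).

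GSK126 exceeded TGF-β1 for ADAM23 in both lines. The direct comparison of TGF-β1 with GSK126 gave log2 fold changes of -1.83 ± 0.22 (SE; adjusted p = 5.05e-06) in A549 and -0.48 ± 0.09 (adjusted p = 4.78e-06) in H1944. ADAM22, a catalytically inactive receptor of LGI proteins at synapses, stood at 5.26 ± 0.953 CPM (SD, n = 3) in naive H1944 and 13.3 ± 2.61 CPM (n = 6) under GSK126, a rise by 1.15 ± 0.25 (adjusted p = 0.000173), without overlap. In A549 ADAM22 was highest in the 2 background-rich libraries, at 13 CPM in naive A and 23.3 CPM in TGF-β1 high B, and was not called.

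The 8 ADAMs known from testis and epididymis were low. Their summed level was 37.2 CPM in A549 TGF-β1 high library B and 27.0 CPM in A549 naive library A, the libraries with most background, and 2.88 to 19.3 CPM elsewhere. ADAM32 was the only member of this list that passed the filter in H1944, and it lies 1.85 kb downstream of ADAM9 on chromosome 8. It rose under TGF-β1 from 0.841, 1.66 and 3.01 CPM in naive cells to 4.98 to 9.43 CPM in the 6 treated libraries (1.75 ± 0.39, adjusted p = 0.000153), without overlap. Leaving out naive library C raised this to 2.59. Under GSK126 its log2 fold change was 1.08 ± 0.39 (adjusted p = 0.0245), a call lost in 4 of 15 alternatives, among them leaving out naive A or B or GSK126 low library A. Without naive C it was 1.93.

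ADAMTS6, a secreted protease acting on fibrillin microfibrils and syndecan-4, had the next largest increases under TGF-β1. The gene lies at chr5:65148736-65481920 on the minus strand (GRCh38). Naive A549 libraries held 8.12, 1.45 and 2.13 CPM of ADAMTS6, with the background-rich library A highest, and naive H1944 libraries 1.68, 1.66 and 1.2 CPM on 24 counts. The TGF-β1 libraries held 269 and 327 CPM (low) and 324, 318 and 366 CPM (high) in A549. In H1944 they held 254, 255 and 280 CPM (low) and 261, 266 and 254 CPM (high). Treated levels were thus at least 254 CPM in all 11 libraries. The log2 fold changes were 6.27 ± 0.41 (SE; adjusted p = 1.18e-09) in A549 and 7.64 ± 0.17 (adjusted p = 2.53e-35) in H1944, increases of 77.2-fold and 200-fold.

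GSK126 raised ADAMTS6 to far lower levels. A549 libraries held 14.6, 13.4 and 22.9 CPM (low) and 17.6 and 7.13 CPM (high), and H1944 libraries 5.42, 8.16 and 4.60 CPM (low) and 9.23, 10.0 and 12.5 CPM (high). In A549 one GSK126 library lay below naive library A. Log2 fold changes were 1.89 ± 0.38 (SE; adjusted p = 0.00353) in A549 and 2.43 ± 0.25 (adjusted p = 5.26e-11) in H1944. Without naive library A the A549 values for ADAMTS6 rose to 2.83 (7.13-fold, from 3.70-fold) under GSK126 and 7.33 (161-fold) under TGF-β1. TGF-β1 exceeded GSK126 directly by 4.38 ± 0.31 (adjusted p = 4.91e-09) and 5.22 ± 0.10 (adjusted p = 5.15e-38).

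The promoters of 4 members are shown: ADAM19 and ADAMTS6 for the largest changes under TGF-β1 in both lines, ADAM23 as a riser under GSK126 in both lines, and ADAMTSL3 for its rise under GSK126 in H1944. They were chosen after their values were seen, and ADAMTS16, which also rose under GSK126 in both lines, is not shown. RefSeq promoter windows (GRCh38.p14) were matched for 29 of the 44 members, and the first 250 bases of each were read 5′ to 3′ on the gene's strand. Some windows, such as that of ADAMTSL1, lie inside the GENCODE span of the gene. In the 4 sequences shown, bases already inside an annotated exon were left out, which shortens that of ADAMTSL3 to 213 bases. Capitals mark CAGAC or GTCTG, the short SMAD element on either strand, and GGAATG or CATTCC, the TEAD element on either strand. The windows are chr5:157575776-157576025 (minus strand) for ADAM19, chr5:65481921-65482170 (minus strand) for ADAMTS6, chr2:206443282-206443531 (plus strand) for ADAM23 and chr15:83653873-83654085 (plus strand) for ADAMTSL3.
ADAM19: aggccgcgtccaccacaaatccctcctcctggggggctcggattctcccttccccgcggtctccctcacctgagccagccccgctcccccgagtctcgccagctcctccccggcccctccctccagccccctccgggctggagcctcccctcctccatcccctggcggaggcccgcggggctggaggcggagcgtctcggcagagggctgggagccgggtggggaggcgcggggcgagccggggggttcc
ADAMTS6: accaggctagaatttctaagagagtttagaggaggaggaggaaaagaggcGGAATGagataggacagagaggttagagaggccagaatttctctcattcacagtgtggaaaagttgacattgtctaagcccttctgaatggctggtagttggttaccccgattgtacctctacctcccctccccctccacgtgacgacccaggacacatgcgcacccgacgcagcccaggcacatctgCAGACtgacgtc
ADAM23: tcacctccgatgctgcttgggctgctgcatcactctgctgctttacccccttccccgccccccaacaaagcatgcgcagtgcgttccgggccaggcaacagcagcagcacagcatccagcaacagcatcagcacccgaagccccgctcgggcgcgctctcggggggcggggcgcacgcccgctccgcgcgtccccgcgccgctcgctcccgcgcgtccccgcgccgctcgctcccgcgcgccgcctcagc
ADAMTSL3: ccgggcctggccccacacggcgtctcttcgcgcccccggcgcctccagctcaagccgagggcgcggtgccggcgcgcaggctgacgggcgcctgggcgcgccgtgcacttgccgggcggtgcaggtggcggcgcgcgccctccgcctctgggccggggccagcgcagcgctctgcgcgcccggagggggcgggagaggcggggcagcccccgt

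Only the ADAMTS6 window holds capitals, with 1 match of each element. Over all 35116 RefSeq windows of this length, 38.0% hold CAGAC or GTCTG, 11.9% hold GGAATG or CATTCC, and 4.20% hold TGAGTCA or TGACTCA, the AP-1 element. Among the 29 matched members these letters were found in 12 (41.4%), 4 (13.8%) and 0 windows. These counts, and the CpG and GC values below, were taken on full windows with exon bases included. All 250 bases lie in annotated exons for ADAM10, ADAM15, ADAMTS13, ADAMTSL1, ADAMTSL2 and ADAMTSL5. None of the 3 motifs contains another, and a match describes the letters of this window alone. The ADAM19 window holds 21 CpG dinucleotides, that of ADAMTS6 8, that of ADAM23 33 and the full window of ADAMTSL3 40. The median was 25 over the matched members and 11 over all windows, and the median GC content was 73.6% and 58.0%.

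**Figure D3:**
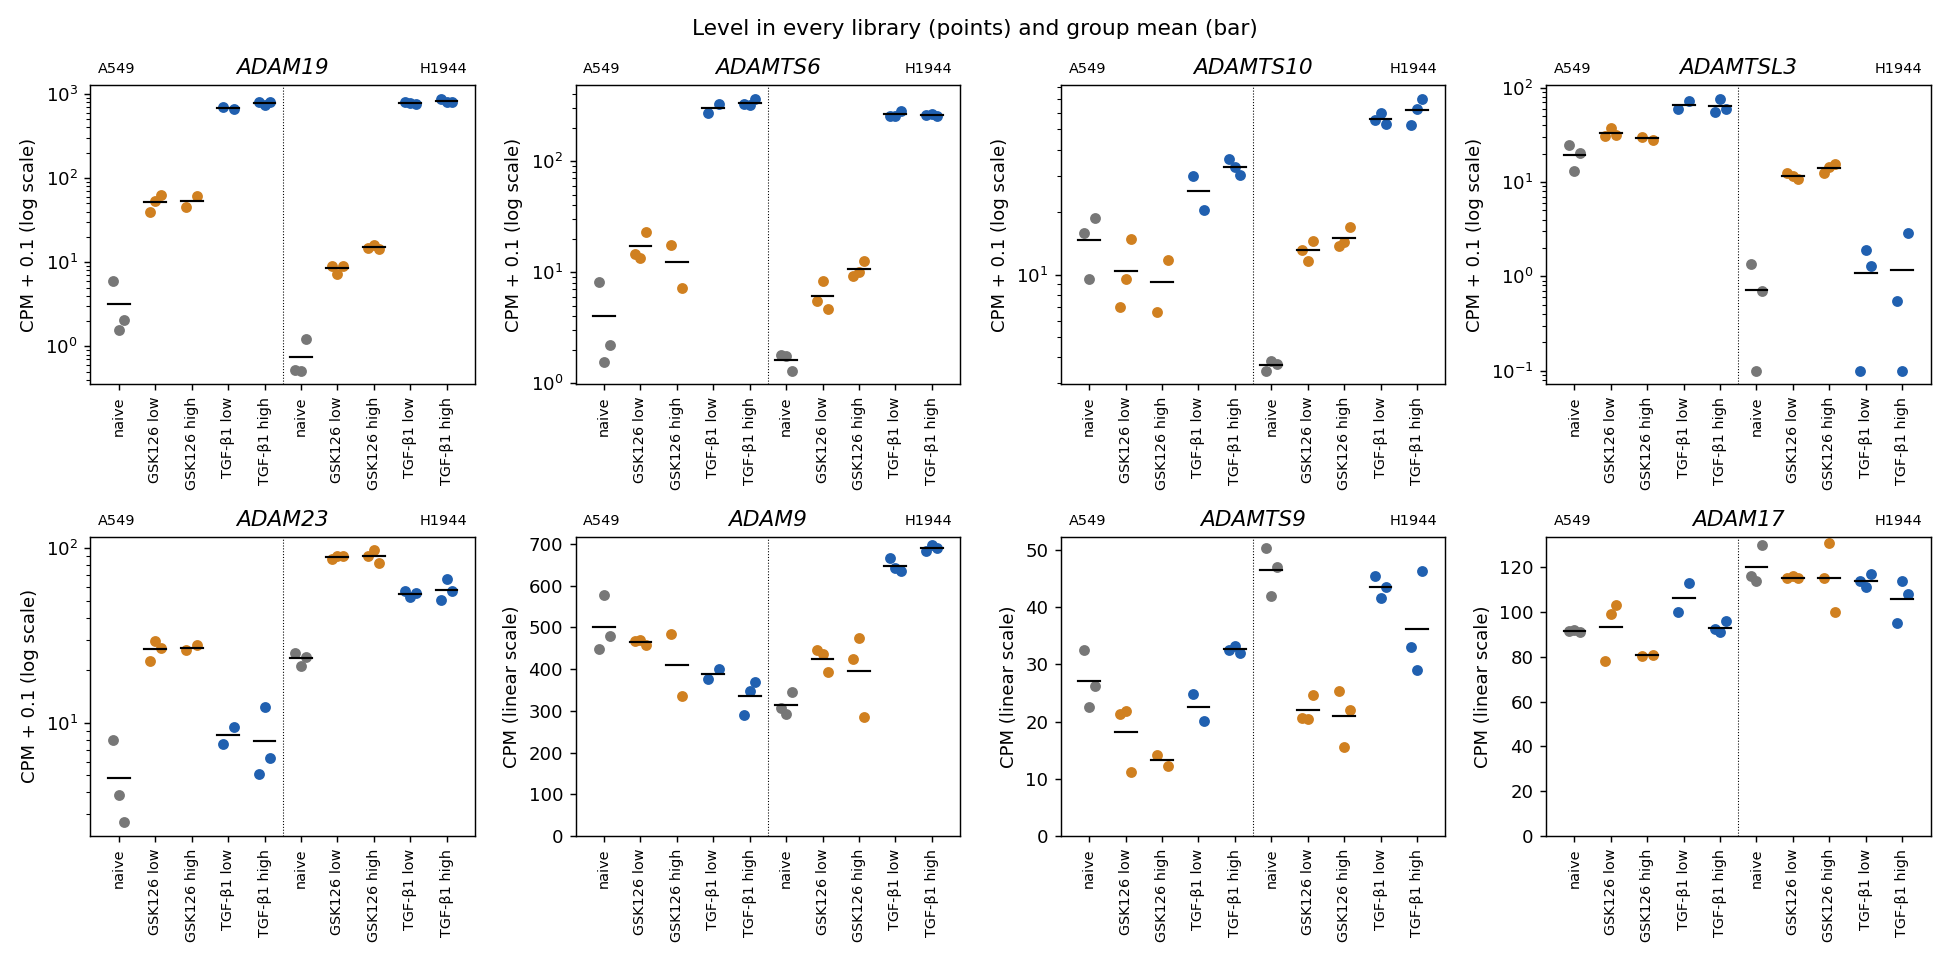
Level in every library for 8 members (points, CPM; the bar is the group mean), with A549 to the left and H1944 to the right of the dotted line; ADAM19, ADAMTS6, ADAMTS10, ADAMTSL3 and ADAM23 are drawn as CPM + 0.1 on a log axis, ADAM9, ADAMTS9 and ADAM17 on a linear axis from 0. Both TGF-β1 gates of ADAM19 lie between 663 and 881 CPM in both lines, ADAMTSL3 rises under TGF-β1 in A549 and under GSK126 in H1944, and ADAM17 stays between 78.2 and 131 CPM.

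Among the other ADAMTS proteases, ADAMTS10, which binds fibrillin microfibrils, moved far more in H1944. Its naive H1944 libraries held 3.36, 3.74 and 3.61 CPM, the GSK126 libraries 11.6 to 16.8 CPM and the TGF-β1 libraries 52.5 to 70.3 CPM, so the 3 conditions did not overlap. The log2 fold changes were 1.81 ± 0.21 (SE; adjusted p = 5.72e-10) and 4.09 ± 0.18 (adjusted p = 5.4e-24). In A549 it rose from 15.8, 9.4 and 18.6 CPM to 29.8 and 20.4 CPM (low) and 36.0, 32.8 and 30.2 CPM (high) under TGF-β1 (0.83 ± 0.26, adjusted p = 0.0308). That call was lost in 5 of 15 alternatives, among them leaving out naive library B or TGF-β1 low library A (adjusted p up to 0.251). With GSK126 the A549 value was -0.65 ± 0.28 (adjusted p = 0.225).

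ADAMTS16, a protease linked to blood pressure and gonad development, rose in 3 comparisons. Naive A549 held 10.1 ± 1.9 CPM (SD, n = 3) and GSK126 raised this to 31.8 ± 1.84 CPM (n = 5), by 1.60 ± 0.19 (SE; adjusted p = 1.26e-05). TGF-β1 gave 15.6 ± 2.30 CPM (n = 5) there (0.46 ± 0.18, adjusted p = 0.0887). In H1944 the order was the opposite, from 0.42, 2.08 and 3.54 CPM in naive cells to 15.6 ± 6 CPM (n = 6) under GSK126 and 62.2 ± 3.68 CPM (n = 6) under TGF-β1. The log2 fold changes were 2.39 ± 0.34 (adjusted p = 8.22e-06) and 4.52 ± 0.31 (adjusted p = 4.39e-11), and 3.52 and 5.65 without naive library C. The direct comparison of TGF-β1 with GSK126 for ADAMTS16 was -1.14 ± 0.16 (adjusted p = 2.08e-05) in A549 and 2.13 ± 0.19 (adjusted p = 3.08e-09) in H1944.

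The proteoglycanases cut aggrecan and versican. ADAMTS15 rose under TGF-β1 in A549 from 3.48, 1.59 and 2.44 CPM to 21.9 to 35.8 CPM (3.36 ± 0.29, adjusted p = 3.55e-08). In H1944 it rose from 3.36, 4.57 and 4.07 CPM to 38.5 to 45.2 CPM (3.47 ± 0.21, adjusted p = 3e-19). These increases were 10.3-fold and 11.1-fold, with no overlap. Under GSK126 it rose in A549 (1.70 ± 0.30, adjusted p = 0.000881), where one treated library was as low as naive library A (3.48 CPM), and had a log2 fold change of 0.08 ± 0.26 (adjusted p = 0.837) in H1944. ADAMTS8, its neighbour 20 kb away on chromosome 11, had group means of at most 1.23 CPM.

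ADAMTS1, a versican- and aggrecan-cutting protease, rose in 3 comparisons. In A549 its naive libraries held 6.52, 3.76 and 4.42 CPM, the GSK126 libraries 16.4 to 21.4 CPM and the TGF-β1 libraries 9.90 to 20.4 CPM. It rose by log2 fold changes of 1.92 ± 0.21 (SE; adjusted p = 6.57e-06) and 1.31 ± 0.21 (adjusted p = 8.9e-05). Naive H1944 libraries held more, at 55.5, 43.3 and 59.6 CPM, and TGF-β1 libraries 189 to 226 CPM (1.97 ± 0.10, adjusted p = 1.99e-21). GSK126 libraries of H1944 held 60.2 to 73.3 CPM, a log2 fold change of 0.21 ± 0.10 (adjusted p = 0.0996).

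ADAMTS9, a proteoglycanase also needed for cilia, was the one proteoglycanase that fell, and it fell under GSK126. In H1944 the naive libraries held 50.4, 42.0 and 47.1 CPM and the GSK126 libraries 15.5 to 25.3 CPM, a fall by 1.22 on the log2 scale (SE 0.14; adjusted p = 5.4e-10). In A549 the naive libraries held 32.5, 22.6 and 26.2 CPM and the GSK126 libraries 11.2 to 21.9 CPM, a fall by 0.85 (SE 0.21; adjusted p = 0.0177). The arms did not overlap in either line, but the A549 call was lost in 4 of 15 alternatives, among them leaving out naive library C or GSK126 high library B (adjusted p up to 0.132). With TGF-β1 the log2 fold changes were -0.14 ± 0.20 (adjusted p = 0.806) and -0.16 ± 0.14 (adjusted p = 0.32).

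ADAMTS7 and ADAMTS12, which cleave cartilage oligomeric matrix protein, rose in H1944 under both agents. ADAMTS12 stood at 2.1, 0.416 and 0.828 CPM in naive H1944, at 6.06 to 15.9 CPM under GSK126 and at 2.74 to 12 CPM under TGF-β1. The log2 fold changes were 3.14 ± 0.41 (SE; adjusted p = 2.3e-08) and 3 ± 0.43 (adjusted p = 6.83e-08), on 17 naive counts. ADAMTS7 stood at 0.678 to 0.841 CPM in naive H1944 on 13 counts, at 4.59 ± 1.46 CPM (SD, n = 6) under GSK126 (2.43 ± 0.48, adjusted p = 4.5e-05) and at 4.52 ± 1.58 CPM (n = 6) under TGF-β1 (2.55 ± 0.49, adjusted p = 1.52e-05). ADAMTS7 has close copies in the genome, so its reads may be split between them. Neither was called in A549, where ADAMTS12 was at 9.71 CPM in naive library A and 17.1 CPM in TGF-β1 high library B, above the other libraries of their groups. Without these 2 background-rich libraries ADAMTS12 passed in A549 under GSK126 (2.36 ± 0.41, adjusted p = 0.000205), as did ADAMTS7 under TGF-β1 (1.49 ± 0.55, adjusted p = 0.0396).

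The procollagen N-propeptidases ADAMTS2, ADAMTS3 and ADAMTS14 stayed low, with group means of at most 4.05 CPM, and were not called in A549. None of them passed the filter in H1944. Without the 2 background-rich libraries ADAMTS3 passed in A549 under GSK126, at 3.09 ± 0.81 (adjusted p = 0.0101, against 0.468 with them).

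ADAMTSL3, a matrix protein linked to microfibrils and without a protease domain, followed a different pattern in each line. It lies at chr15:83654086-84039842 on the plus strand (GRCh38). Naive A549 libraries held 24.6, 13 and 20.3 CPM of ADAMTSL3, GSK126 libraries 27.9 to 37.2 CPM and TGF-β1 libraries 55.9 to 76.9 CPM, with no overlap between conditions. The TGF-β1 value was 1.61 ± 0.18 (log2 fold change ± SE; adjusted p = 1.57e-06). The GSK126 value of 0.65 ± 0.18 (adjusted p = 0.0354) was a call lost in 10 of 15 alternatives, among them each gate alone and leaving out naive library B, GSK126 low library C or GSK126 library A or B of either gate (adjusted p up to 0.586).

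In H1944 ADAMTSL3 was near 0 in naive cells (1.26, 0 and 0.602 CPM, 11 counts) and under TGF-β1 (0 to 2.75 CPM, 14 counts). GSK126 brought it to 12.4, 11.6 and 10.6 CPM in the low and 12.5, 14.5 and 15.4 CPM in the high gate. Each of these 6 libraries lay above all 9 others of the line. The log2 fold change over naive cells was 4.19 ± 0.47 (SE; adjusted p = 7.58e-10), an 18.3-fold increase. By counting error alone the ratio of pooled counts, a different measure from the fitted fold, has a 95% interval of 11.4 to 41.9. TGF-β1 gave 0.68 ± 0.70 (adjusted p = 0.401), and TGF-β1 lay below GSK126 by 3.51 ± 0.39 on the log2 scale (adjusted p = 1.71e-10).

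ADAMTSL4, a fibrillin-binding ADAMTS-like protein, was the one called member that fell under both agents in H1944. Its naive libraries held 12.2, 15 and 20.7 CPM, the GSK126 libraries 6.43 to 13.5 CPM and the TGF-β1 libraries 1.25 to 4.71 CPM. It fell by 2.17 (log2 fold change; SE 0.27; adjusted p = 1.28e-09) under TGF-β1 without overlap. Under GSK126 it fell by 1.02 (SE 0.22; adjusted p = 0.0002) with overlap, a call lost when naive library C was left out (-0.70, adjusted p = 0.0845). The antisense gene ADAMTSL4-AS1 covers 11.4% of its exon length. In A549 ADAMTSL4 had at most 5.32 CPM, in the background-rich TGF-β1 high library B.

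The 24 members not described singly had group means of at most 10.5 CPM, and none of them passed the test against naive cells in either line. ADAMTSL1 and ADAMTSL5, which lack a protease domain, and the proteoglycanase ADAMTS20 had the highest group means among them, at 10.5, 10.0 and 9.56 CPM. ADAMTSL1 reached 28.2 CPM in A549 TGF-β1 high library B, the library with most background.

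Compared directly, TGF-β1 and GSK126 gave different levels for 10 of 37 tested members in A549, 6 higher and 4 lower under TGF-β1, where 19.7% of all tested genes were called (8.01% higher and 11.7% lower). In H1944 the count was 17 of 22, with 11 higher and 6 lower, where 63.8% of all tested genes were called (31.6% higher and 32.1% lower). ADAM23 and ADAM15 were lower under TGF-β1 than under GSK126 in both lines. ADAM19, ADAMTS6, ADAMTS10, ADAMTS15 and ADAMTS9 were higher in both lines. For ADAMTS9 these differences were 0.71 ± 0.19 (SE; adjusted p = 0.0122) in A549 and 1.06 ± 0.13 (adjusted p = 5.56e-10) in H1944. ADAMTS1, ADAMTS16 and ADAMTSL3 went in opposite directions. ADAMTS1 gave -0.61 ± 0.17 (adjusted p = 0.0139) in A549 and 1.76 ± 0.08 (adjusted p = 1e-23) in H1944.

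Calls in both lines were counted for each agent over the 22 members and 13264 genes tested in both. Under GSK126, 6 members were called in both lines and in the same direction: ADAM19, ADAM23, ADAMTS6, ADAMTS16 and ADAMTSL3 rose and ADAMTS9 fell. These are 27.3% of the 22 members, where 6.6% of all genes were called in both lines. They are 66.7% of the 9 calls of A549 and 37.5% of the 16 of H1944, against 68.1% and 16.5% over all genes. Under TGF-β1, 7 members (31.8%) were called in both, where 22.1% of all genes were. They are 77.8% of the 9 calls of A549 and 53.8% of the 13 of H1944, against 82.1% and 34.7% over all genes. ADAM12, ADAM19, ADAMTS1, ADAMTS6, ADAMTS10 and ADAMTS15 rose in both, and ADAM9 changed in opposite directions.

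Whether an effect differed between the lines was tested in the fit of all 28 libraries. For GSK126 the difference passed for 7 of 31 tested members, 4 with a higher change in H1944 and 3 with a lower one, where 9.92% of all 17918 tested genes were called (6.17% higher and 3.75% lower). The change of ADAMTSL3 was higher in H1944 by 3.55 ± 0.47 (log2; SE; adjusted p = 1.87e-06), and that of ADAMTS10 by 2.45 ± 0.34 (adjusted p = 4.38e-06). ADAM12, ADAMTS1 and ADAMTS15, which rose in A549 and not in H1944, had differences of -1.62 ± 0.19 (adjusted p = 1.6e-07), -1.69 ± 0.23 (adjusted p = 1.89e-06) and -1.63 ± 0.39 (adjusted p = 0.00478). For ADAM19 and ADAM23 the difference did not pass, at -0.58 ± 0.55 (adjusted p = 0.601) and -0.63 ± 0.28 (adjusted p = 0.175). Without the 2 background-rich A549 libraries both passed, at -1.37 ± 0.47 (adjusted p = 0.0422) for ADAM19 and -1.10 ± 0.27 (adjusted p = 0.00291) for ADAM23, and the count of members rose from 7 to 11.

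For TGF-β1 the difference between the lines passed for 7 of 31 tested members, 6 higher and 1 lower in H1944, where 20.0% of all tested genes were called (10.5% higher and 9.43% lower). ADAMTS16 had the largest one, at 3.97 ± 0.38 (SE; adjusted p = 8.41e-10), followed by ADAMTS10 at 3.11 ± 0.32 (adjusted p = 3.72e-09). ADAM19 rose by more in H1944, by 1.93 ± 0.47 (adjusted p = 0.00249), from a lower naive level to a similar treated level. In the fits of each line, the A549 change of ADAM19 went from 7.77 to 8.64 without the 2 background-rich libraries. Its H1944 change went from 9.76 to 10.83 without naive library C. ADAM9 (1.66 ± 0.23, adjusted p = 1.02e-06) and ADAM15 (1.03 ± 0.21, adjusted p = 0.000316) fell in A549, while in H1944 ADAM9 rose and ADAM15 was not called. ADAMTS15, at similar changes of 3.36 and 3.47, did not differ beyond its error (-0.02 ± 0.26, adjusted p = 0.984).

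**Figure D4:**
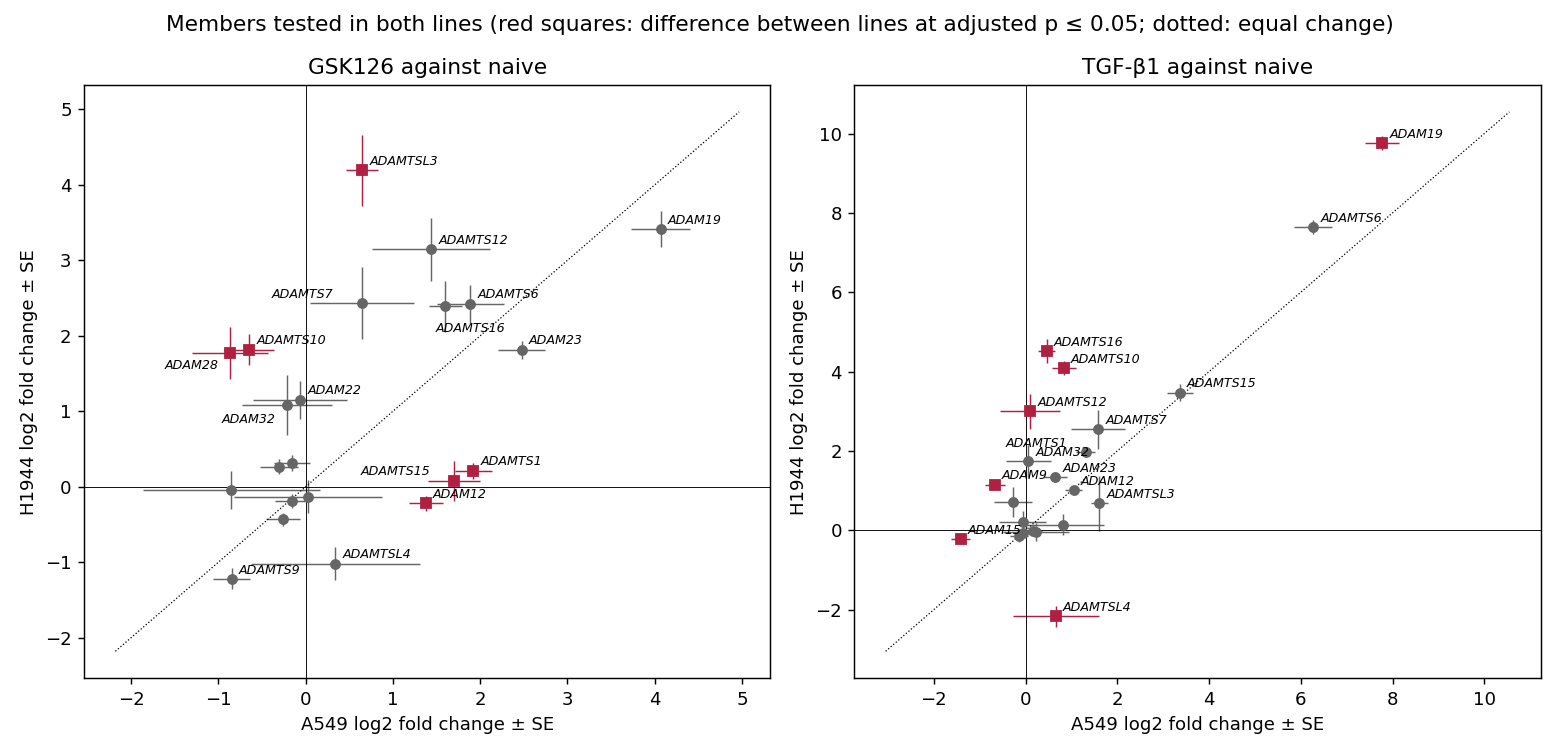
Log2 fold change with its SE against naive cells in A549 (x axis) and H1944 (y axis) for members tested in both lines, under GSK126 (left) and TGF-β1 (right); red squares mark members whose change differed between the lines at an adjusted p of 0.05, and the dotted line marks equal change. ADAM23 and ADAMTS6 lie near the dotted line under GSK126, and ADAMTS16 and ADAMTS10 lie far above it under TGF-β1.

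Naive cells of the 2 lines already differed in 18 of 31 tested members, 7 higher and 11 lower in H1944, where 46.4% of all tested genes were called (23.8% higher and 22.6% lower). ADAMTSL4 (3.91 ± 0.60, adjusted p = 2.23e-06), ADAMTS1 (3.49 ± 0.18, adjusted p = 1.56e-16), ADAMTSL5 (2.74 ± 0.39, adjusted p = 6.34e-07) and ADAM23 (2.36 ± 0.24, adjusted p = 5.95e-10) had the largest log2 differences in favour of H1944. ADAMTSL3 was lower in H1944 by 4.86 ± 0.40 (adjusted p = 7.36e-12), and ADAMTS10 by 1.96 ± 0.28 (adjusted p = 5.29e-07). The sheddase ADAM17 was higher in H1944 by 0.43 ± 0.15 (adjusted p = 0.0176).

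The high gate was compared with the low gate to ask which members go with the reporter. In H1944 under GSK126, 4 of 22 tested members were higher in the high gate and 0 lower, where 7.42% of all tested genes were called (3.87% higher and 3.55% lower). ADAM19 stood at 8.34 ± 1.01 CPM (SD, n = 3) in the low and 14.9 ± 0.821 CPM (n = 3) in the high gate, a rise by 0.86 ± 0.18 (SE; adjusted p = 0.00159). ADAM15 rose from 69.5, 76.4 and 88.6 CPM to 97.4, 97.8 and 128 CPM (0.45 ± 0.12, adjusted p = 0.00956), without overlap. ADAMTS6 (0.74 ± 0.22, adjusted p = 0.0287) and ADAMTS15 (1.07 ± 0.32, adjusted p = 0.0314) also rose, the latter with overlapping gates. Only ADAM19 of these 4 was still called without the low-count filter, which left 1 call. Leaving out 1 library of these gates gave 1 to 5 calls, with 1 without high library C, and 2 without high library A or without low library A, B or C. High library C had the most background reads of these gates. Its olfactory receptor sum was 73.2 CPM, against 5.42 to 32.9 CPM in the others.

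The other gate comparisons gave 0 calls among the members with edgeR's quasi-likelihood test. In A549 under GSK126, 0.0% of all genes were called, and 2 of 37 members had an unadjusted p under 0.05, as did 980 of all genes. DESeq2 also called 0 members there. In A549 under TGF-β1, 0.0% of all genes were called, 1 member and 198 genes had an unadjusted p under 0.05, and DESeq2 called 0 members. In H1944 under TGF-β1, 0.0808% of all genes were called (0.0147% higher and 0.0661% lower), and 2 of 22 members had an unadjusted p under 0.05, as did 718 genes. The first of these 2 was ADAM12, at 132, 146 and 149 CPM in the low and 213, 197 and 172 CPM in the high gate (0.47 ± 0.11, adjusted p = 0.0838), and DESeq2 called 1 member.

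Genes that work with the family were counted from lists. In A549 3.66% of all tested genes were called higher under GSK126 and 7.77% under TGF-β1, and in H1944 21.4% and 32.1%, the shares against which the counts of rises in these lists stand. The shares called lower were 3.21% and 11.5% in A549 and 18.7% and 31.6% in H1944. A gene is named for the comparisons in which it had one of the 2 smallest adjusted p of its list, and its other values are added where its direction differed between comparisons. Of the inhibitors (the TIMPs, RECK, A2M and PAPLN), 6 were tested in each line. TIMP2, an inhibitor of matrix metalloproteases, rose in all 4 comparisons, by 0.90 ± 0.25 (SE; adjusted p = 0.034) and 2.48 ± 0.26 (adjusted p = 6.55e-07) under GSK126 and TGF-β1 in A549. In H1944 it rose by 0.87 ± 0.12 (adjusted p = 4.08e-08) and 2.42 ± 0.12 (adjusted p = 5.95e-23). It was the 1 inhibitor called in A549, whereas 5 of 6 rose in H1944 under each agent and 0 fell. The median log2 fold changes of the list under GSK126 and TGF-β1 were 0.11 and 0.51 in A549 and 1.10 and 1.89 in H1944. TIMP3, which inhibits ADAM17 and several ADAMTS proteases, had 1 count in the naive H1944 libraries, 122 counts under GSK126 and 278 under TGF-β1. With the counts of each condition pooled, its ratio to naive cells was 109 (95% counting interval 19.2 to 4350) under GSK126 and 343 (61.1 to 13600) under TGF-β1. The mean levels over libraries were 0.14 CPM in naive cells, 5.93 CPM under GSK126 and 18.9 CPM under TGF-β1. The fitted log2 fold changes, which at 1 naive count depend on the fit's prior count, were 5.93 ± 0.60 (SE; adjusted p = 2.58e-11) and 7.76 ± 0.51 (adjusted p = 5.2e-18).

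Regulators of maturation and trafficking were the tetraspanins and iRhoms that escort ADAM10 and ADAM17, the proprotein convertases that remove their prodomains, and 2 glycosylation enzymes of thrombospondin repeats. In A549, 3 of 15 rose and 0 fell under GSK126, and 4 rose and 2 fell under TGF-β1. In H1944, 11 of 14 rose and 1 fell under each agent, where 21.4% (GSK126) and 32.1% (TGF-β1) of all genes rose. The medians were 0.36 and 0.61 in A549 and 0.55 and 1.07 in H1944. The convertase PCSK5 rose under GSK126 in A549 (1.63 ± 0.26, adjusted p = 0.000324) and H1944 (3.73 ± 0.19, adjusted p = 1.7e-21), and under TGF-β1 in A549 (1.76 ± 0.25, adjusted p = 2.52e-05) and H1944 (5.2 ± 0.17, adjusted p = 5.93e-29). FURIN, another convertase, rose under GSK126 in A549 by 1.46 ± 0.30 (adjusted p = 0.00381) and fell under it in H1944 by 0.53 (SE 0.09; adjusted p = 4.12e-06). Under TGF-β1 FURIN rose in both lines, by 2.63 ± 0.31 (adjusted p = 2.49e-06) and 1.26 ± 0.09 (adjusted p = 1.44e-16). TSPAN15, a tetraspanin partner of ADAM10, fell under TGF-β1 in A549 by 2.10 (SE 0.20; adjusted p = 1.83e-07) and rose in H1944 under GSK126 by 1.59 ± 0.22 (adjusted p = 6.62e-08) and under TGF-β1 by 1.38 ± 0.23 (adjusted p = 1.31e-06). It had a value of -0.17 ± 0.20 (adjusted p = 0.715) under GSK126 in A549. TSPAN5 rose under TGF-β1 in A549 (1.97 ± 0.21, adjusted p = 4.66e-07). The convertase PCSK6 fell under TGF-β1 in H1944 by 1.60 (SE 0.09; adjusted p = 9.87e-20). It had a log2 fold change of -1.83 ± 0.26 (adjusted p = 2.3e-05) under TGF-β1 in A549. Its GSK126 values were 0.36 ± 0.25 (adjusted p = 0.509) in A549 and -0.07 ± 0.09 (adjusted p = 0.541) in H1944.

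The EGF receptor and ERBB ligands that ADAMs release moved unevenly. In A549, 2 of 10 rose and 0 fell under GSK126, and 2 rose and 1 fell under TGF-β1. In H1944, 6 of 8 rose and 1 fell under GSK126, and 3 rose and 3 fell under TGF-β1. The medians were 0.62 and 0.36 in A549 and 0.99 and -0.24 in H1944. NRG1, a neuregulin and known substrate of ADAM19, rose in all 4 comparisons, under GSK126 by 1.40 ± 0.21 (adjusted p = 0.000235) in A549 and 1.24 ± 0.12 (adjusted p = 5.89e-12) in H1944. Under TGF-β1 it rose by 2.75 ± 0.23 (adjusted p = 2.27e-08) in A549 and 2.80 ± 0.12 (adjusted p = 4.31e-25) in H1944. HBEGF, a ligand shed by ADAM17, rose under TGF-β1 by 4.42 ± 0.29 (adjusted p = 9.62e-10) in A549 and 4.98 ± 0.22 (adjusted p = 2.34e-24) in H1944. TGFA rose under GSK126 by 0.64 ± 0.19 (adjusted p = 0.0443) in A549 and 2.88 ± 0.33 (adjusted p = 8.86e-09) in H1944.

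Of 25 other shed substrates tested in each line, 8 rose and 2 fell under GSK126 and 8 rose and 5 fell under TGF-β1 in A549. In H1944 the counts were 12 and 7 under GSK126 and 14 and 8 under TGF-β1. The medians were 0.41 and 0.38 in A549 and 0.29 and 0.69 in H1944. The receptor kinase AXL (3 ± 0.29, adjusted p = 1.18e-06) and the adhesion molecule L1CAM (2.45 ± 0.34, adjusted p = 0.000103) rose under GSK126 in A549. NOTCH3 fell under TGF-β1 in A549 by 4.81 (SE 0.31; adjusted p = 9.11e-10), and CDH2, N-cadherin, rose by 2.52 ± 0.24 (adjusted p = 1.32e-07). In H1944 CDH2 rose under GSK126 by 3.04 ± 0.16 (adjusted p = 1.66e-20) and under TGF-β1 by 6.65 ± 0.15 (adjusted p = 3.43e-35). CDH1, E-cadherin, fell there by 1.64 (SE 0.09; adjusted p = 1.12e-20) and 4.36 (SE 0.11; adjusted p = 8.93e-34).

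The ADAMTS substrates, matrix proteins and proteoglycans, had the highest median of these 5 lists in 3 of the 4 comparisons and the lowest in A549 under GSK126. In A549, 7 of 17 rose and 1 fell under GSK126 (median log2 fold change 0.00), and 9 rose and 0 fell under TGF-β1 (median 1.29). In H1944, 7 of 12 rose and 1 fell under GSK126 (median 1.19), and 11 rose and 1 fell under TGF-β1 (median 4.25). FBN2 (3.16 ± 0.27, adjusted p = 3.44e-07) and COL1A1 (3.55 ± 0.39, adjusted p = 6.82e-06) rose under GSK126 in A549. COL5A1 (8.14 ± 0.44, adjusted p = 9.13e-11) and COL1A1 (6.81 ± 0.42, adjusted p = 6.93e-10) rose under TGF-β1 in A549. In H1944 FN1 rose by 5.78 ± 0.12 (adjusted p = 2.22e-35) under GSK126 and 10.02 ± 0.13 (adjusted p = 1.24e-44) under TGF-β1, COL1A1 by 8.83 ± 0.15 (adjusted p = 6.68e-39) under TGF-β1, and FBN1 fell under GSK126 by 3.79 (SE 0.09; adjusted p = 3.45e-33). FBN1 also fell under TGF-β1 in H1944, by 1.42 (SE 0.08; adjusted p = 1.21e-19), and rose in A549 by 0.78 ± 0.20 (adjusted p = 0.0199) under GSK126 and 1.99 ± 0.21 (adjusted p = 4.3e-07) under TGF-β1.

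Within each line, marker sums changed under TGF-β1, as the ADAM19 and ADAMTS6 levels did. Between the lines the fibroblast sums under TGF-β1 were far apart, while mean ADAM19 was 738 CPM in A549 and 800 CPM in H1944. Mean ADAMTS6 was 321 CPM in A549 and 262 CPM in H1944. The 6 fibroblast markers summed to 2.46 to 34.1 CPM in naive A549 and 207 to 498 CPM under TGF-β1, and to 9.64 to 13.5 CPM in naive H1944 and 3380 to 4430 CPM under TGF-β1. COL1A1, which is also on the list of ADAMTS substrates with COL3A1 and DCN, made up 82.8% to 93.4% of this sum in the TGF-β1 libraries of A549 and 96.7% to 97.9% in those of H1944. The other 5 fibroblast markers summed to 1.45 to 30.1 CPM in naive A549 and 32.2 to 73.2 CPM under TGF-β1, and to at most 2.79 CPM in naive H1944 and 89.7 to 122 CPM under TGF-β1. The 6 epithelial markers summed to 5000 to 7390 CPM in A549 and 1490 to 1730 CPM in H1944 under TGF-β1, lower than in naive cells.

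Under GSK126 mean ADAM19 was 52.2 CPM in A549 and 11.6 CPM in H1944. All 6 fibroblast markers summed to 35.1 to 54.6 CPM in A549 and 37.6 to 99.7 CPM in H1944, ranges that overlapped. The epithelial sum was 8040 to 10800 CPM in A549, below its naive libraries, and 4940 to 7680 CPM in H1944, overlapping with naive cells. In any library endothelial markers summed to at most 52.8 CPM, leukocyte markers to at most 36.6 CPM and testis germ cell markers to at most 17.7 CPM. The part of these marker genes in the ADAM19 and ADAMTS6 result was not tested.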

How the data were processed

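Total RNA libraries of 28 cell populations were made with a strand-marking kit (SMARTer Pico), per the labels' protocols. The deposited table holds whole-number read counts per gene and library. Per the submitters' processing notes, the authors used bcl2fastq 2.20.0, STAR 2.6.0c with GRCh38 and HTSeq 0.12.3, and the strand setting and annotation release of the counting were not given in the sources used here. Gene symbols, biotypes and merged exon lengths came from GENCODE 29, which held 56753 of the 60483 identifiers.

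From these counts, CPM values were computed with each library's total, and tests were run with edgeR 4.0.16 in R 4.3.3 (TMM normalization, its filter on low counts, robust quasi-likelihood F test, Benjamini-Hochberg adjustment over all genes). Each line was fitted with its 5 groups, and the gates of a treatment were averaged for contrasts with naive cells. Differences between lines came from a fit of 28 libraries. The procedure was tested on simulated data. Reads carry no molecular identifiers, so counting intervals (exact, 95%) cover counting error only, and more deeply sequenced libraries carry less of it. No 2 replicate libraries agreed within sampling noise.

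The members, their role lists and the partner lists were chosen with earlier results of these data known. Members were described singly where they passed the test against naive cells and reached a group mean of 5 CPM in that line, with ADAM10 and ADAM17 described in any case, and partner genes were named as the 2 of smallest adjusted p in each list and comparison.

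Alternatives were RLE size factors, no filter, DESeq2 1.42.0, each gate alone, the replicate letter as a block and each library left out in turn. The fit without both background-rich A549 libraries was added after the data were seen. Same-letter gates deviated together in H1944 under GSK126 (correlations 0.125, 0.171 and 0.129), though no label states a pairing. The gate tests given above did not use the letter, which entered only in the replicate-block alternative. For A549, GSK126 high C and TGF-β1 low B were not analysed here.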

Additional observations from a re-analysis of the deposited data

Results flagged for a closer look

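The change from naive cells differed between the lines, by the test of that difference in the fit of all 28 libraries, for the following members; values are log2 differences, H1944 minus A549. Under GSK126 they were 4.302 for ADAMTS17 (SE 1.345; adjusted p = 0.0354), 3.545 for ADAMTSL3, 2.695 for ADAM28, 2.447 for ADAMTS10, -1.617 for ADAM12, -1.629 for ADAMTS15 and -1.691 for ADAMTS1. ADAMTS17 rests on 3 counts in naive H1944, did not pass the low-count filter in that line alone, and lost its call under the replicate block. The ADAM28 value (adjusted p = 0.00137) combines a rise in H1944 with a log2 fold change of -0.87 ± 0.43 in A549 that did not pass.

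Under TGF-β1 they were 3.971 for ADAMTS16, 3.109 for ADAMTS10, 2.76 for ADAMTS12 (SE 0.944; adjusted p = 0.0393), 1.932 for ADAM19, 1.662 for ADAM9, 1.027 for ADAM15 and -2.86 for ADAMTSL4 (SE 0.75; adjusted p = 0.00525). In A549 both ADAMTS12 (17.1 CPM) and ADAMTSL4 (5.32 CPM) were highest in TGF-β1 high library B, which had most background. The fit without both background-rich A549 libraries also covered these differences, but its values for them are not given here.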

How the results depend on the processing

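Of 705 alternative values for the 47 calls against naive cells, 660 kept direction and call, 45 lost the call and 0 reversed, and 39 calls were kept in every alternative run. Counts of called members stayed within 1.5 times for the other comparisons. The H1944 GSK126 gates gave 4 calls, 1 without the filter and 1 to 5 when a library was left out. DESeq2 called 1 member between the H1944 TGF-β1 gates, against 0. Without both background-rich A549 libraries, the GSK126 effect differed between lines for 11 members, against 7. With the replicate block, which pairs gates of the same letter, the H1944 GSK126 gates again gave 4 calls. The naive comparisons then gave 8 (A549 GSK126), 7 (A549 TGF-β1), 16 (H1944 GSK126) and 13 (H1944 TGF-β1). The block moved no count by over 1.5 times, but 3 A549 calls were lost: ADAMTSL3 under GSK126, and ADAM9 and ADAMTS10 under TGF-β1. Several naive levels rest on few counts (11 for ADAMTSL3, 13 for ADAMTS7 and 17 for ADAM19 and ADAMTS12 in H1944), which limits how precisely their folds are known.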

Other observations

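Within 1000 kb of each other lie 8 pairs of neighbouring members, and the highest group means of a pair were far apart in some and both low in others. ADAMTS1 and ADAMTS5 lie 72.5 kb apart on chromosome 21, and ADAMTS1 had a highest group mean of 209 CPM against 0.963 CPM for ADAMTS5. ADAMTS15 and ADAMTS8 lie 20 kb apart on chromosome 11, with highest group means of 44.1 and 1.23 CPM. ADAM9 and ADAM32 lie 1.85 kb apart on chromosome 8, with highest group means of 690 and 9.82 CPM. The highest ADAM9 group was the high TGF-β1 gate of H1944, and the highest ADAM32 group the low TGF-β1 gate of A549. ADAM28 (8.89 CPM) and ADAM7 (2.78 CPM), ADAMTS13 (5.12 CPM) and ADAMTSL2 (0.573 CPM), ADAM18 (2.34 CPM) and ADAM2 (1.17 CPM), and ADAM21 (0.785 CPM) and ADAM20 (1.68 CPM) were low in every group. The last pair of the 8 is ADAM32 with ADAM18.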
